A study of Pan paniscus with 11 samples.

Results

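The lines compared are cultured fibroblasts of bonobos (Pan paniscus) that fell into a collagenase-high and a collagenase-low class by their intensity for MMP1. MMP1 encodes interstitial collagenase. Of the 11 cultures of the series, 10 were lines of different animals, described as normal and harvested under standard conditions, and these were the members. They were chosen and divided by measured MMP1 intensity: the MMP1-high class took the 5 lines with an intensity over 5000 and the MMP1-low class the 5 lines with an intensity under 1500. The MMP1-high lines were female lines 4 and 5, both from animals aged 20 years, and male lines 1, 2 and 3, from animals aged 4, 2 and 12 years. The MMP1-low lines were female lines 1, 2 and 3, aged 9, 2 and 4 years, and male lines 4 and 5, aged 17 and 19 years. The eleventh culture, a second culture of male line 1 harvested at 50% confluence, stayed out of the comparison. Each culture was measured on 1 array of human probe sets, so a difference between human and bonobo sequence can lower a signal. The body site, the passage number and the confluence of the standard cultures are not given in the sources used here.

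Interstitial collagenase is secreted as an inactive proenzyme and, once activated, cuts the triple helix of fibrillar collagens, which few other proteases can do. Stromelysin 1, the product of MMP3, can complete the activation of procollagenase, plasmin can start it, and tissue inhibitors of metalloproteinases (TIMPs) block the active enzyme. In dermal fibroblasts MMP1 is known to respond to interleukin 1, to growth factors acting through MAP kinases and AP-1, and to the state of the actin cytoskeleton and the surrounding matrix. MMP1 and MMP3 are close neighbours in a cluster of metalloproteinase genes.

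The MMP1 intensities chose the classes and are therefore a description with no test. Female lines 4 and 5 read 12032 and 8220, and male lines 1, 2 and 3 read 7243, 8128 and 7471. Female lines 1, 2 and 3 read 1356, 951 and 602, and male lines 4 and 5 read 382 and 778. The 2 classes averaged 8619 ± 1953 and 814 ± 369 (SD, n = 5 each), a 10.6-fold ratio of the means. The line just inside the upper limit was male line 1 at 7243 and the line just inside the lower limit was female line 1 at 1356. Those 2 values stood 5.34-fold apart, and 0 lines lay between them. Each class held both sexes and a wide range of ages. The ages averaged 11.6 ± 8.53 years in the MMP1-high and 10.2 ± 7.60 years in the MMP1-low class (SD, n = 5 each; exact two-sided permutation p = 0.770). Within each sex, however, the classes did not overlap in age: the older females and the younger males were MMP1-high. The MMP1 class and this pattern of sex by age cannot be told apart in these 10 lines. For the same reason, a class difference that differs between the sexes cannot be told apart from a difference with donor age.

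**Figure D1:**
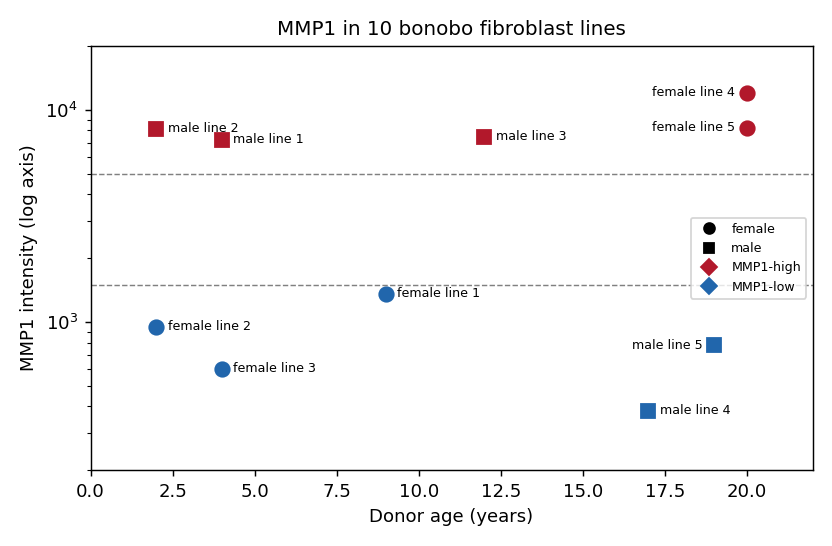
MMP1 intensity (log axis) against donor age in years for the 10 standard lines, 1 point per line, circles for females and squares for males; dashed lines mark the limits of 5000 and 1500. The older 2 of 5 female lines and the younger 3 of 5 male lines lie above 5000, and the other 5 lines lie between 382 and 1356.

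All other genes were then compared between the classes on the log2 scale, after intensities below 100, the floor, were raised to it. Differences below are log2 MMP1-high minus MMP1-low with their standard error (SE). Adjusted p is from limma over 7332 probe sets with a threshold of 0.05. Values of single lines are given in the order female lines 4 and 5 and male lines 1, 2 and 3 for the MMP1-high class, and female lines 1, 2 and 3 and male lines 4 and 5 for the MMP1-low class. No probe set passed (0 of 7332, 0%), and the lowest adjusted p was 0.136. Before adjustment, 451 probe sets (6.15%) had a p under 0.05, where about 367 are expected by chance. So no gene named below is called different between the classes unless stated. With 1 culture per animal, the p-values weigh the differences against a spread that holds both animal and technical variation. In bulk RNA, fewer cells of a kind and less RNA per cell cannot be told apart.

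With 1 probe set per gene, 2592 of 5369 genes had a difference above 0 (48.3%) and 2777 one below 0 (51.7%), with a median of −0.01. In 30 genes (0.559%) every MMP1-high line lay above every MMP1-low line, and in 19 (0.354%) every MMP1-high line lay below. A random split into 5 and 5 lines separates a gene without ties with a probability of 0.0079, both directions together. These shares thus lie near chance. Many of these genes were weak signals. Among the 30, 12 stayed under 500 in all 10 lines and 5 were over 1000 in every line of a class. Among the 19 the counts were 14 and 1. The arrays as a whole did not separate by class. The root mean square log2 distance between 2 lines was 0.590 to 0.686 within the MMP1-high class, 0.628 to 0.856 within the MMP1-low class and 0.575 to 0.850 between the classes, and 6 of 10 lines had their nearest neighbour in their own class.

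By estimate, an array measure of RNA state differed between the classes, with overlapping ranges, and it did not pass adjustment. The GAPDH 3' to 5' signal ratio, which rises when the 5' ends of transcripts are lost, was 0.855 ± 0.206 in the MMP1-high and 1.24 ± 0.294 in the MMP1-low lines (SD, n = 5 each; exact two-sided permutation p = 0.0476, adjusted over 6 measures 0.286). The ACTB 3' to 5' ratio was 1.18 ± 0.250 and 1.40 ± 0.490 (SD, n = 5 each; exact p = 0.492), with 2.27 in male line 4. The share of probe sets above the floor was 56.9% ± 0.640 and 56.2% ± 3.55 (SD, n = 5 each; exact p = 0.722). With the GAPDH ratio as a covariate 0 probe sets passed as well. The ratio was fitted as a covariate for the lists of function and for the 42 genes named for low p, for lack of overlap or for following MMP1, and its value is given where it moved one of their estimates by over 1.5 times or turned its sign. For the other genes named from the lists the part of RNA state was not tested.

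Markers showed fibroblasts in both classes. The array holds 16 of the fibroblast markers, each of them above the floor in all 10 lines, and their summed intensity was 132090 to 198363 in the MMP1-high and 139187 to 197427 in the MMP1-low lines. Of these, THY1, a surface glycoprotein of fibroblasts, had a log2 difference of −0.60 ± 0.27 and did not pass (adjusted p = 0.801). Endothelial markers summed to 800 to 990 and 826 to 1006 over 8 genes, blood markers to 1309 to 1645 and 1181 to 1521 over 8, and melanocyte markers to 618 to 1053 and 684 to 854 over 6, in MMP1-high and MMP1-low lines respectively. SELE, ITGAM and TYRP1 stayed at the floor throughout. Above the floor in all 10 lines were 2 of the 8 blood markers and 0 of the endothelial and melanocyte markers. Among 15 keratinocyte and epithelial markers, 6 were above the floor in all 10 lines, and sums were 3716 to 5465 and 4101 to 6432. KRT19 stayed at the floor throughout, KRT14 reached 109 and EPCAM 101. IVL, a gene of the cornified envelope, was at the floor in all 5 MMP1-high lines and read 170, 121, 203, 145 and 105 in the MMP1-low lines, so it was at least 1.45-fold lower in the MMP1-high class (adjusted p = 0.782).

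Among the 7 metalloproteinase genes tested other than MMP1, MMP3 was the 1 whose classes did not overlap. Over all genes the shares without overlap were 0.559% higher and 0.354% lower. MMP3 read 1478, 297, 239, 598 and 1268 in the MMP1-high lines. It read 227 in female line 1 and was at the floor in the other 4 MMP1-low lines. The lowest MMP1-high value (239, male line 1) was thus close to the highest MMP1-low value. The log2 difference was 2.36 ± 0.48 (adjusted p = 0.308), with 2.33 within the females and 2.50 within the males. With 4 MMP1-low lines at the floor, these 3 differences are lower bounds, and their likeness in the sexes is not a result. With the GAPDH ratio as a covariate the class difference was 1.22. Female line 4 and male line 3 were far above the other MMP1-high lines for MMP3, whereas for MMP1 male line 3 was among the lower ones of its class.

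Of 16 metalloproteinase genes on the array other than MMP1, 7 were above the floor often enough to be tested, and 6 of the 7 were higher in the MMP1-high lines, with a median log2 difference of 0.27 against −0.01 over all genes. That median was 0.13 without female line 3 and 0.42 without female line 1, and with the GAPDH ratio as a covariate it was 0.18, with 4 of 7 higher. MMP3 was above the floor in all 5 MMP1-high lines, in 1 MMP1-low line and in the 50% confluence culture. It thus entered the test through the MMP1-high class, and its part in the count is not separate support. Apart from MMP3 the differences were small. MMP14, the membrane-bound collagenase, read 2821, 4150, 3682, 4477 and 2896 against 4829, 2481, 2810, 1271 and 2904, a log2 difference of 0.43 ± 0.28, and 1.06 ± 0.50 by its second probe set. MMP2, gelatinase A, differed by 0.31 ± 0.33. The other differences were 0.27 for MMP11, 0.14 for MMP15 (−0.09 in a second probe set), 0.14 for MMP25 and −0.12 for MMP16. None of these passed, and the classes overlapped for each.

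The other 9 metalloproteinase genes on the array were not tested because few arrays exceeded the floor. MMP13, another collagenase, and MMP7, matrilysin, stayed at the floor in all 10 lines. MMP8, the neutrophil collagenase, was above it in 1 line, at 102. MMP9, gelatinase B, read 341 in female line 4, the line of highest MMP1, and was at the floor in the other 9. MMP10, stromelysin 2, read 130 in female line 4 and in male line 1. MMP12, macrophage elastase, read 164 in female line 4, 133 in male line 3 and 153 in male line 4. In the gene order of a bonobo assembly, MMP1 stands between MMP10 and MMP3. Of the metalloproteinase genes of that cluster on the array (MMP7, MMP20, MMP8, MMP10, MMP3, MMP12 and MMP13), MMP3 was therefore the 1 that could be tested. The genes BIRC2 and TMEM123, which lie on the MMP7 side of the cluster, differed by 0.15 and −0.28.

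**Figure D2:**
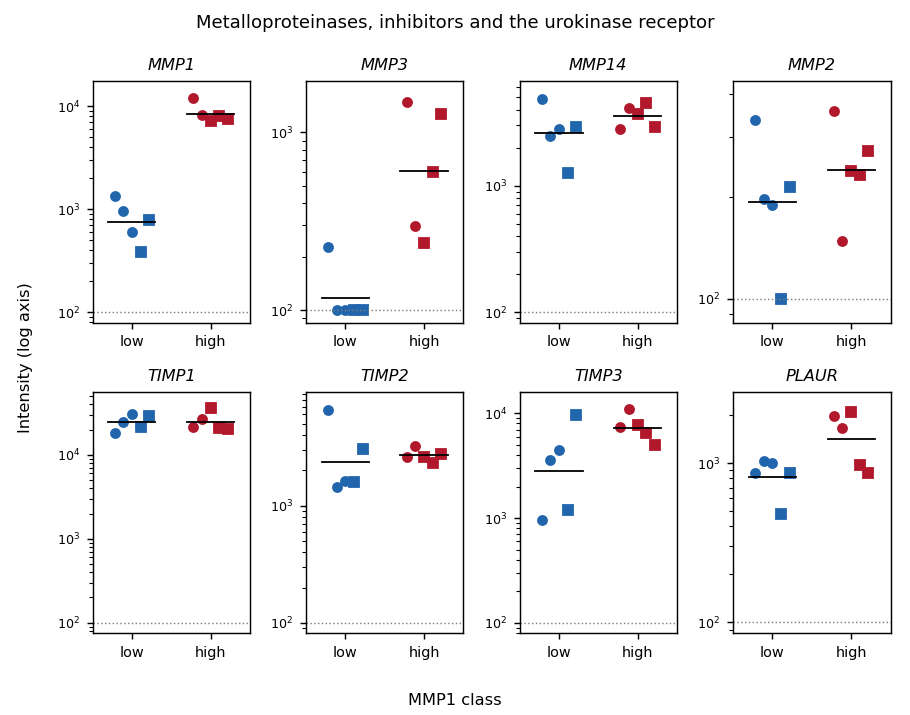
Intensity (log axis) of MMP1, MMP3, MMP14, MMP2, 3 inhibitors and PLAUR in MMP1-low (blue) and MMP1-high (red) lines, 1 point per line, circles for females and squares for males, with a bar at the mean of log2 values and a dotted line at the floor of 100. MMP1, which defined the classes, and MMP3 separate fully. MMP14, MMP2, TIMP1, TIMP2, TIMP3 and PLAUR, each drawn by its brightest probe set, overlap between the classes.

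Of the metalloproteinase inhibitors, TIMP1, which blocks most secreted metalloproteinases, was among the brighter genes at 18319 to 36593 over the 10 lines, with a log2 difference of 0.02 ± 0.22. TIMP3, an inhibitor held in the matrix, read 7415, 11053, 7667, 6458 and 4986 in the MMP1-high lines and 960, 3605, 4430, 1205 and 9725 in the MMP1-low lines. In 4 of 5 MMP1-low lines TIMP3 lay below every MMP1-high line, and male line 5 was the exception. Its log2 difference was 1.36 ± 0.49 by this probe set and 1.17 ± 0.46 by the other, and it did not pass (adjusted p = 0.763). TIMP2 differed by 0.19 ± 0.34, whereas its second, dimmer probe set differed by 1.20 ± 0.29 (adjusted p = 0.462). That second probe set did not overlap, at 629 to 1848 in the MMP1-high and 297 to 454 in the MMP1-low lines, while the brighter one did. RECK, a membrane-anchored inhibitor, differed by −0.12 ± 0.33, and by −0.08 and 0.00 in its other 2 probe sets. Of 4 tested inhibitors 3 were above 0, with a median of 0.10, which was 0.01 without female line 2 and 0.23 without female line 1. With the GAPDH ratio as a covariate the median was 0.16, with 2 of 4 higher. TIMP4 and TFPI2 were above the floor in 1 and 3 lines and were not tested.

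In the plasminogen system, whose protease plasmin can start the activation of procollagenase, 8 of 10 tested genes were higher, with a median of 0.24. PLAUR, the urokinase receptor, read 1982, 1665, 2094, 972 and 862 in the MMP1-high lines and 862, 1029, 999, 480 and 866 in the MMP1-low lines. Female lines 4 and 5 and male line 1 stood above the rest, and male lines 2 and 3 lay within the MMP1-low range. The log2 difference was 0.79 ± 0.29 (adjusted p = 0.763). PLAT, the tissue activator, differed by 0.73 ± 0.38, SERPINE2, a protease inhibitor also called protease nexin 1, by 0.38 ± 0.21, and PLAU, urokinase itself, by −0.11 ± 0.45. None passed. ADAM and ADAMTS proteases were evenly divided, with 4 of 8 higher and a median of 0.01, and 7 of 8 and 0.16 with the GAPDH ratio as a covariate. ADAM17, the TNF-converting enzyme, had the largest difference of these (0.59 ± 0.26), and its second probe set gave −0.22.

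Transcription factors that act on the MMP1 promoter showed no shared direction. Of 18 tested AP-1, ETS and related factor genes, 9 were higher and 9 lower, with a median of 0.10. The number without overlap was 0, against 0.559% higher and 0.354% lower over all genes. Among the AP-1 genes, JUNB read 660, 499, 878, 670 and 653 against 347, 974, 592, 515 and 296, a log2 difference of 0.41 ± 0.30. FOS differed by −0.14 ± 0.33, JUN by −0.06, FOSB by −0.10, JUND by −0.20, FOSL2 by 0.20 and MAFF by 0.36, and FOSL1 and MAF by less than 0.01 in size. Among the ETS genes, ETS1 differed by 0.54 ± 0.39, ETS2 by 0.49 ± 0.29, ELK3 by 0.35, ETV5 by 0.31, ERF by 0.23, ELF1 by −0.14, ELK1 by −0.25 and ETV1 by −0.46. A second probe set of ETS2 gave 0.07 and one of ELK1 0.37. RUNX2, which binds next to AP-1 in some collagenase promoters, differed by 0.26, and by 0.02 in a second probe set. None of the 18 had an unadjusted p under 0.05, against 2.94% higher and 2.78% lower over all genes.

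Targets and feedback regulators of MAP kinase signalling were higher in 14 of 22, with a median of 0.10, and 0.45 with 20 of 22 higher when the GAPDH ratio was a covariate. The median was −0.02 without female line 1 and −0.03 without male line 1. DUSP4, a nuclear MAP kinase phosphatase, had the largest difference, with 428, 376, 211, 131 and 620 against 191, 108, 100, 100 and 415. That was a log2 difference of 1.0 ± 0.46 that did not pass (adjusted p = 0.801). CCND1, the cyclin that drives entry into the cell cycle, was brighter (7252 to 14434 over the 10 lines) and differed by 0.40 ± 0.20. SPRED2 and SPRY1, inhibitors of the pathway, differed by −0.59 and −0.57.

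The interleukin 1 and NF-kB response list was divided, with 13 of 28 tested genes higher, 15 lower and a median of −0.00 (0.02 with the GAPDH ratio as a covariate). The widest difference in it was that of IL1RL1, the receptor of interleukin 33. IL1RL1 read 2081, 2691, 1600, 2509 and 613 in the MMP1-high lines and 205, 643, 396, 283 and 1153 in the MMP1-low lines. Male line 3 and male line 5 crossed over, and the other 8 lines separated, at 1600 to 2691 against 205 to 643. The log2 difference was 1.93 ± 0.46 (adjusted p = 0.458), 2.66 within the females and 1.24 within the males. Enzymes of prostaglandin E2 synthesis were also higher by estimate, PTGES by 1.24 ± 0.54 and PTGS2 by 0.87 ± 0.56. For PTGES the estimate was 2.59 in the males and −0.29 in the females (limma adjusted p of the interaction 0.998). Such a pattern cannot be told apart from one of donor age. The cytokine genes IL6 (0.19), IL1B (0.05) and CCL2 (−0.31) and the inhibitor NFKBIA (0.04) had smaller differences, and none passed. CCL2 read 1496 in female line 4, the line of highest MMP1, and 747 in male line 4. Several chemokine genes were too often at the floor to be tested. Of these, CXCL6 read 1595 in female line 4 and was at the floor in the other standard lines. CXCL1 read 960 there and 176 in female line 3, and CXCL5 563 there and 195 in male line 2. CXCL3, CXCL10, CCL8 and CCL20 stayed at the floor throughout. VCAM1, an adhesion molecule, differed by −0.85 ± 0.53, with 1128 in male line 4.

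The collagens and other substrates of collagenase gave 8 of 13 genes higher and a median of 0.06, or 6 of 13 and −0.01 with the GAPDH ratio as a covariate. TNC had the widest difference. TNC encodes tenascin-C, a matrix glycoprotein of healing and remodelling tissue. It read 6482, 5309, 2503, 5845 and 2667 in the MMP1-high lines and 340, 2236, 478, 736 and 3447 in the MMP1-low lines. All MMP1-high lines exceeded 4 of the 5 MMP1-low lines, and male line 5 overlapped. The log2 difference was 2.10 ± 0.53 (adjusted p = 0.479), 3.04 within the females and 1.09 within the males. Female line 2 and male line 5 were the brightest MMP1-low lines for both TNC and IL1RL1.

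The fibrillar collagens that the enzyme cuts differed little. COL1A1 differed by 0.42 ± 0.47 (0.83 ± 0.32 in a second probe set), COL1A2 by −0.24 ± 0.20, COL3A1 by 0.00 ± 0.38 and COL2A1 by 0.14 ± 0.27. COL1A1 read 2122 in male line 4 and 5281 in female line 4, and 8718 to 17516 in the other 8 lines. COL5A2 differed by −0.36, COL11A1 by −0.15, COL10A1 by −0.27, COL7A1, of anchoring fibrils, by 0.29, NID1 by 0.08 and ACAN by 0.06, with −0.34 and −0.27 in the other probe sets of ACAN. The growth factor binding proteins IGFBP3 and IGFBP5, which metalloproteinases can cleave, differed by 0.22 and −0.03, with −0.71 to 0.03 in the other 4 probe sets of IGFBP5. For COL3A1 the estimates had opposite signs in the sexes (−1.09 in the females and 1.08 in the males), as they had for COL7A1 (1.80 and −1.31) and COL10A1 (−1.88 and 1.18). These interactions did not pass (limma adjusted p = 0.998 for each). In the females the MMP1-high lines came from the older animals and in the males from the younger ones. Opposite signs in the sexes thus cannot be told apart from a difference with donor age. Over all 7332 probe sets 0 interactions with sex passed (0%; lowest adjusted p = 0.417), with 258 at an unadjusted p under 0.05 (3.52%).

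Genes for folding, crosslinking and trimming of collagen were lower in 8 of 14, with a median of −0.05. Of 48 other matrix genes, 22 were higher and 26 lower, with a median of −0.04, and 25 were higher with a median of 0.04 when the GAPDH ratio was a covariate. ELN, elastin, read 1674, 2296, 4541, 1620 and 1335 against 323, 2259, 1274, 110 and 1196, a log2 difference of 1.65 ± 0.63, and 0.43 ± 0.67 by a second probe set. THBS1, thrombospondin 1, differed by 0.79 ± 0.28 and by 0.27 and 1.21 in its other probe sets. The last of these did not overlap, at 810 to 1674 in the MMP1-high and 260 to 721 in the MMP1-low lines. CSPG4 differed by 1.18 ± 0.53, with 0.04 in a second probe set. VCAN, the proteoglycan versican, differed by −0.78 ± 0.33, and its other 2 probe sets by −0.78 and −0.56. Within the females VCAN differed by −1.72, −1.63 and −1.72, against 0.14, 0.14 and 0.68 within the males. These interactions with sex did not pass (limma adjusted p = 0.998, 0.998 and 0.685) and cannot be told apart from a pattern of donor age. Each of these 4 was past an unadjusted p of 0.05 in its brightest probe set, and none passed the adjustment. Among collagen and thrombin receptors, 7 of 16 were higher, with a median of −0.02, and 11 of 16 and 0.08 with that covariate. CD44, a hyaluronan receptor that can hold metalloproteinases at the cell surface, read 2277 to 2547 in the MMP1-high lines and 791, 2505, 1484, 1212 and 1739 in the MMP1-low lines. Its 4 probe sets gave log2 differences of 0.68 to 1.0, with a lowest adjusted p of 0.479.

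Across all genes, the lowest p belonged to ADGRB1 and LPXN. ADGRB1 encodes an adhesion G protein-coupled receptor. It read 453, 401, 416, 724 and 417 in the MMP1-high lines, and 227 and 169 in female line 3 and male line 4, and was at the floor in the other 3 MMP1-low lines. Its log2 difference was 1.84 ± 0.31 (adjusted p = 0.136). ADGRB1 was above the floor in 5 MMP1-high and 2 MMP1-low lines, so it entered the test through the MMP1-high class. Its difference is no separate support. LPXN encodes leupaxin, a paxillin-related adaptor of focal adhesions. LPXN read 2085, 1603, 940, 1753 and 1518 in the MMP1-high lines and 734, 617, 386, 431 and 716 in the MMP1-low lines. The groups did not overlap, and the log2 difference was 1.46 ± 0.25 (adjusted p = 0.136). When log2 MMP1 itself took the place of the classes, LPXN had a slope of 0.43 ± 0.06 log2 per log2 of MMP1 (adjusted p = 0.0187) and was the 1 probe set under 0.05 (0.0136% of those tested). The slope uses the MMP1 values that divided the lines, which form 2 clusters, and the same 10 lines, so it is not separate support for the class difference, which did not pass.

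The other genes of lowest p on the higher side were mostly dim. KLK6, a kallikrein protease, read 587, 305, 280, 339 and 347 against 256, 152, 189, 100 and 139, a log2 difference of 1.17 ± 0.31, and 0.55 with the GAPDH ratio as a covariate. HOXC5, a homeobox gene of positional identity, read 415, 404, 382, 745 and 665 against 325, 300, 170, 141 and 196, a difference of 1.22 ± 0.31, and 0.62 with that covariate. ATP2B2, a plasma membrane calcium pump, was at the floor in all 5 MMP1-low lines and read 134 to 205 in the MMP1-high lines, so it was at least 1.71-fold higher (adjusted p = 0.479). It entered the test through the MMP1-high class alone. AVPR1B (1.16), CEACAM3 (1.11), TMPRSS6 (0.93) and ANKRD40 (0.88) did not overlap between the classes either, and ITGAX (1.22), MYT1 (1.12) and FAIM2 (1.03) did. Adjusted p was 0.442 to 0.482 for these 10 genes. Except for TMPRSS6, at 255 to 830, and KLK6 and HOXC5, all of them stayed under 500 in all 10 lines. AVPR1B, CEACAM3, ITGAX, MYT1 and FAIM2 were above the floor in 1 to 3 MMP1-low lines, so they too entered the test through the MMP1-high class. PGC (0.94) and DPH2 (0.89, and 0.54 with the GAPDH ratio as a covariate) completed the 10 widest non-overlapping differences on this side.

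On the higher side, the 5 non-overlapping genes with over 1000 in every line of a class, named after their values were seen, had differences under 1 log2. HSP90AB1, a cytosolic chaperone, read 7495 to 10738 in the MMP1-high and 3479 to 7420 in the MMP1-low lines, a log2 difference of 0.65, but its other 3 probe sets gave 0.17 to 0.24. DDB1, a DNA damage binding protein, read 2803 to 3138 and 1905 to 2706, a difference of 0.39, and 0.21 with the GAPDH ratio as a covariate. E2F4, a repressor of the E2F family, read 2216 to 2424 and 1551 to 1820, a difference of 0.47 ± 0.15, but its other probe sets gave −0.18, −0.04 and 0.65. EPOR read 1480 to 1851 and 843 to 1421 (0.52, and 0.07 to 0.16 in its other 2 probe sets), and MICB 1209 to 1927 and 865 to 1041. ADA, adenosine deaminase, was likewise noted after its values were seen, because both its probe sets agreed in direction. They gave log2 differences of 1.66 ± 0.32 (adjusted p = 0.227) and 1.13 ± 0.34, and in the first, 1202 to 3246 in the MMP1-high lines stood against 346 to 978.

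**Figure D3:**
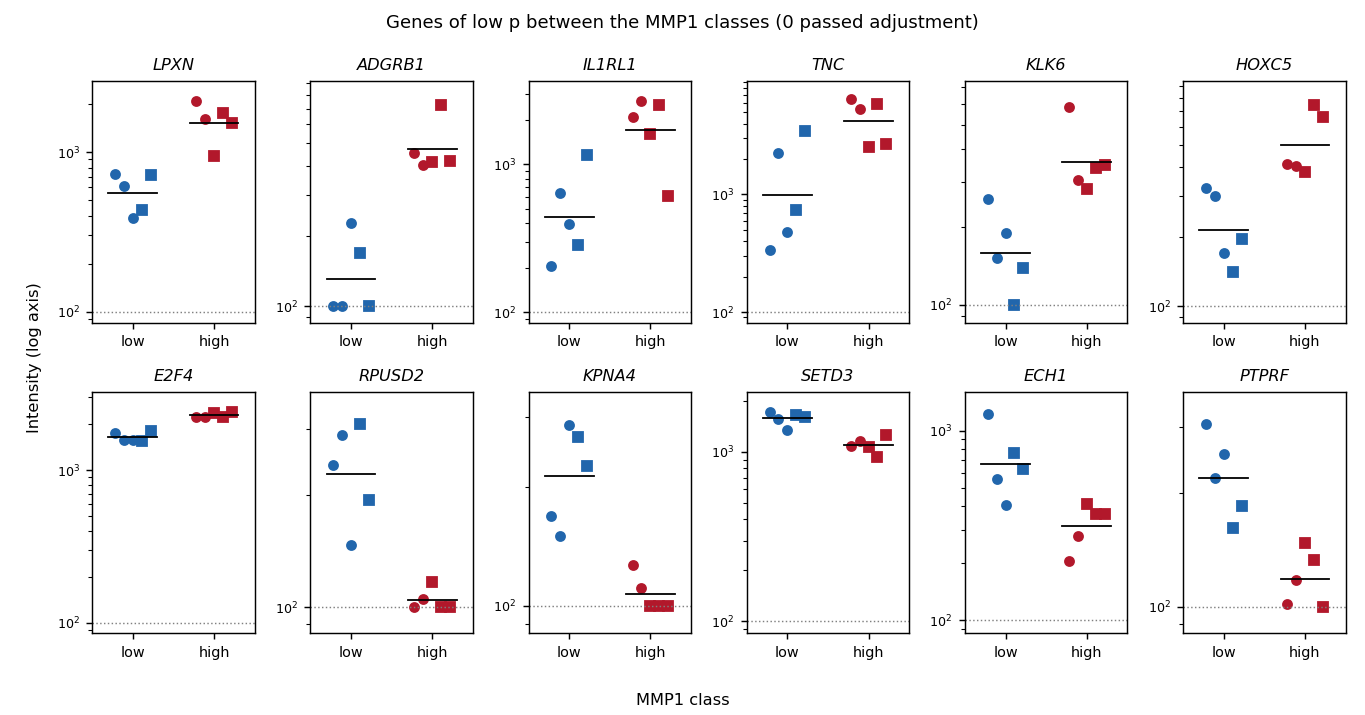
Intensity (log axis) of 12 genes of low unadjusted p in MMP1-low (blue) and MMP1-high (red) lines, 1 point per line, circles for females and squares for males, with a bar at the mean of log2 values and a dotted line at the floor of 100. LPXN, ADGRB1, KLK6, HOXC5 and E2F4 lie fully higher and RPUSD2, KPNA4, SETD3 and PTPRF fully lower in the MMP1-high lines, while IL1RL1, TNC and ECH1 overlap, and 0 of the 12 passed adjustment.

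On the lower side RPUSD2 had the lowest p. RPUSD2, of a pseudouridine synthase family, was at 100 to 117 in the MMP1-high lines and read 240, 290, 147, 311 and 194 in the MMP1-low lines, a log2 difference of −1.13 ± 0.24 (adjusted p = 0.380). LAT, a T cell signalling adaptor (−1.02), KPNA4, an importin (−0.99), and PTPRF, a receptor phosphatase (−0.89), likewise sat near the floor in the MMP1-high lines. RPUSD2, LAT and KPNA4 were above the floor in 1 or 2 MMP1-high lines, so they entered the test through the MMP1-low class. TAB1, an adaptor of the kinase TAK1, differed by −1.18 without overlap. Of brighter genes, SETD3, an actin histidine methyltransferase, read 1076, 1151, 1065, 936 and 1252 against 1704, 1568, 1352, 1657 and 1610. It was the 1 gene of the 19 with over 1000 in every line of a class, with a difference of −0.53 ± 0.17 (adjusted p = 0.663). ECH1, an enzyme of fatty acid oxidation, read 204, 279, 411, 363 and 363 against 1231, 559, 407, 766 and 626 (−1.09 ± 0.30). CRIP1, a LIM domain protein, read 1526, 4877, 4209, 4228 and 2998 against 8480, 4627, 4891, 8423 and 7030 (−0.97 ± 0.29). For both, 1 MMP1-high line lay above 1 MMP1-low line. SH3BGR (−1.49), GPR31 (−1.16), ST3GAL2 (−1.10), PLXNA2 (−0.98), AFAP1, an actin filament protein (−0.80), and NDUFB8, a subunit of respiratory complex I (−0.62), overlapped too. With the GAPDH ratio as a covariate PLXNA2 was at −0.56 and NDUFB8 at −0.37. KDM5A (−0.81), PEX5 (−0.72), TM2D1 (−0.67), WAPL (−0.65) and TCF20 (−0.58) did not overlap, and a second probe set of TCF20 gave 0.45. With that covariate TM2D1 was at −0.43.

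Genes were also ordered by how closely they followed log2 MMP1 over the 10 lines. Since MMP1 itself fell into 2 separate clusters, no correlation over both is given. The 10 that followed it most closely were E2F4, LPXN, KLK6, DDB1, ASB4, ATP2B2, HOXC5, STAT6, PGC and DPH2. STAT6, the transcription factor of interleukin 4 signalling, read 2698 to 3402 in the MMP1-high lines, 3087 in female line 1 and 1613 to 1914 in the other MMP1-low lines, a difference of 0.61 ± 0.19, with 0.38 ± 0.27 in a second probe set and 0.31 with the GAPDH ratio as a covariate. ASB4 differed by 1.23, and by 0.68 with that covariate. The 10 that ran most closely opposite were WAPL, KPNA4, TM2D1, ZBTB22, ST3GAL2, PLXNA2, RPUSD2, TCF20, SETD3 and RAD9A. Their class differences lay between −1.13 and −0.45. MMP3 was in neither set.

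Apart from the lists of cell type markers, the widest shift of a list median was that of contractile genes, the actin, myosin and regulator genes of smooth muscle and myofibroblasts. Of 16 tested, 15 were lower in the MMP1-high lines (51.7% of all genes were), with a median of −0.46 against −0.01 over all genes. Of the 16, 5 had an unadjusted p under 0.05, all lower (2.78% of all genes). The number that passed or separated the classes was 0 (0.354% of all genes were lower without overlap). ACTA2, the actin that marks myofibroblasts, read 6265, 9250, 10185, 4330 and 915 in the MMP1-high lines and 12477, 7565, 10579, 13964 and 21614 in the MMP1-low lines, a log2 difference of −1.40 ± 0.51 (adjusted p = 0.763). Within the males the difference was −2.34 and within the females −0.39. MYH11, the smooth muscle myosin heavy chain, read 100, 378, 874, 100 and 100 against 6163, 195, 680, 1567 and 626, a difference of −2.25 ± 0.78, and −1.28 to −0.81 in its other 3 probe sets. CNN1, calponin, read 470, 100, 362, 100 and 100 against 415, 211, 1033, 406 and 329 (−1.23 ± 0.51).

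Male lines 2 and 3 were the lowest for several of these genes. CALD1, caldesmon, read 638 and 680 there and 1139 to 2819 in the other 8 lines, with a class difference of −0.75 ± 0.31. TPM2, a tropomyosin, read 3805 and 1738 there and 4939 to 16122 elsewhere (−0.92 ± 0.42). Other probe sets gave −0.35 for CALD1 and −0.69 and −0.36 for TPM2. TAGLN (−0.31), MYL9 (−0.43), VCL (−0.17), TPM1 (−0.16) and ACTN1 (−0.07) differed less, and SMTN (0.21) was the 1 member above 0. The median of the list was −0.30 within the females, with 11 of 16 lower, and −0.54 within the males, with 14 lower and 2 higher. Leaving out each line in turn moved the median between −0.66, without male line 1, and −0.23, without male line 3. With the GAPDH ratio as a covariate it was −0.19, with 10 of 16 lower. The 8 smooth muscle markers summed to 10686 to 37978 in the MMP1-high and 23595 to 59683 in the MMP1-low lines, and DES, desmin, was at the floor in all 10. The 6 of these markers that were tested, some of which the contractile list holds too, had a median of −0.77, with 5 of 6 lower, which ran from −1.02 to −0.46 as single lines were left out, and −0.31 with 3 lower when the GAPDH ratio was a covariate.

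**Figure D4:**
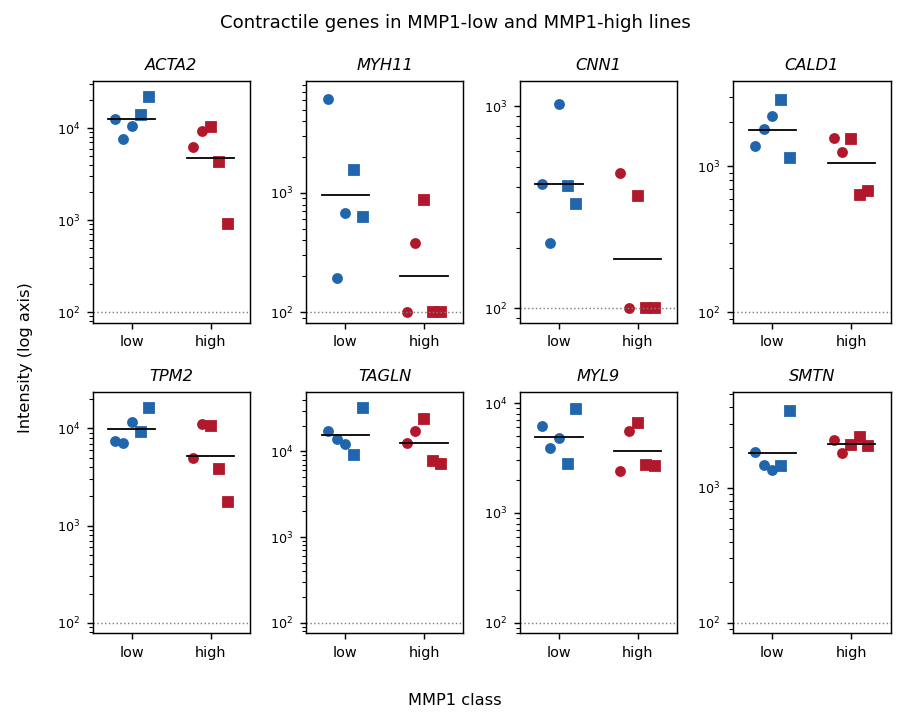
Intensity (log axis) of 8 contractile genes in MMP1-low (blue) and MMP1-high (red) lines, 1 point per line, circles for females and squares for males, with a bar at the mean of log2 values and a dotted line at the floor of 100. The bars are lower in the MMP1-high lines for ACTA2, MYH11, CNN1, CALD1, TPM2, TAGLN and MYL9 and higher for SMTN, and the points overlap in each panel.

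Cell cycle lists pointed in different directions. Of 34 mitosis genes, 30 were lower in the MMP1-high lines, with a median of −0.30 that moved between −0.59, without female line 1, and −0.12, without female line 3. With the GAPDH ratio as a covariate it was −0.10, with 20 lower. PTTG1, securin, read 257, 257, 352, 253 and 793 in the MMP1-high lines and 312, 414, 1047, 1552 and 1457 in the MMP1-low lines (−1.21 ± 0.46, adjusted p = 0.782). CDKN3, a cell cycle phosphatase, read 152, 138, 265, 245 and 707 against 183, 301, 795, 1399 and 1036 (−1.21 ± 0.55). Male line 3 was the highest MMP1-high line for both, and female lines 1 and 2 were the lowest MMP1-low lines. DNA replication genes went the other way by estimate, with 27 of 40 higher and a median of 0.15, and 33 of 40 and 0.38 with the GAPDH ratio. Without female line 1 that median was −0.10, and without any other line 0.05 to 0.23. MCM2, a subunit of the replicative helicase, differed by 0.70 ± 0.31, with 467 in female line 1, and RRM1, of ribonucleotide reductase, by −0.65 ± 0.36. Arrest and p53 target genes were lower in 15 of 20, with a median of −0.14, which was −0.30 without male line 5, −0.07 without male line 4 and −0.23, with 12 lower, with the GAPDH ratio as a covariate. These held CDKN1C (−1.29 ± 0.47), with 1616 in female line 1, and BAX (−0.59 ± 0.24, and −0.50 to −0.02 in its other 4 probe sets).

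Other regulatory lists lay near all genes or shifted little. TGF-beta and BMP genes were higher in 20 of 27 (median 0.13), and in 17 of 27 (median 0.27) with the GAPDH ratio as a covariate. GREM1, a secreted antagonist of BMP, read 1105, 1745, 1167, 1759 and 678 against 783, 648, 734, 218 and 460, a log2 difference of 1.23 ± 0.35 (adjusted p = 0.576) and 0.41 in a second probe set. ID1, a target of BMP signalling, differed by 0.78 ± 0.29 and 1.03 ± 0.31 in its 2 probe sets. HOX and other patterning genes were higher in 15 of 22 (median 0.20), and HOXC5, given above, was the 1 without overlap (0.559% of all genes were higher without overlap). Growth factors and receptors were higher in 15 of 30 (median 0.01, and 0.04 with that covariate), with FGFR1 at 0.60 ± 0.26 and −0.00 to 0.44 in its other 3 probe sets. Retinoid and steroid receptors were higher in 7 of 15 (median −0.01, and 0.05 with that covariate), with RARA, a retinoic acid receptor, at 0.70 ± 0.23 and PPARD at −0.78 ± 0.30. Interferon response genes were lower in 13 of 21 (median −0.12), with IFI35 at −1.03 ± 0.35 and −0.47 in a second probe set. Oxidative stress and metallothionein genes were lower in 16 of 24 (median −0.10), and in 12 of 24 (median −0.05) with that covariate. As single lines were left out, the medians of the ADAM, AP-1 and ETS, inflammatory, substrate, collagen processing, other matrix, collagen receptor, retinoid and steroid, interferon and stress lists each took both signs. In none of these lists did a gene pass.

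**Figure D5:**
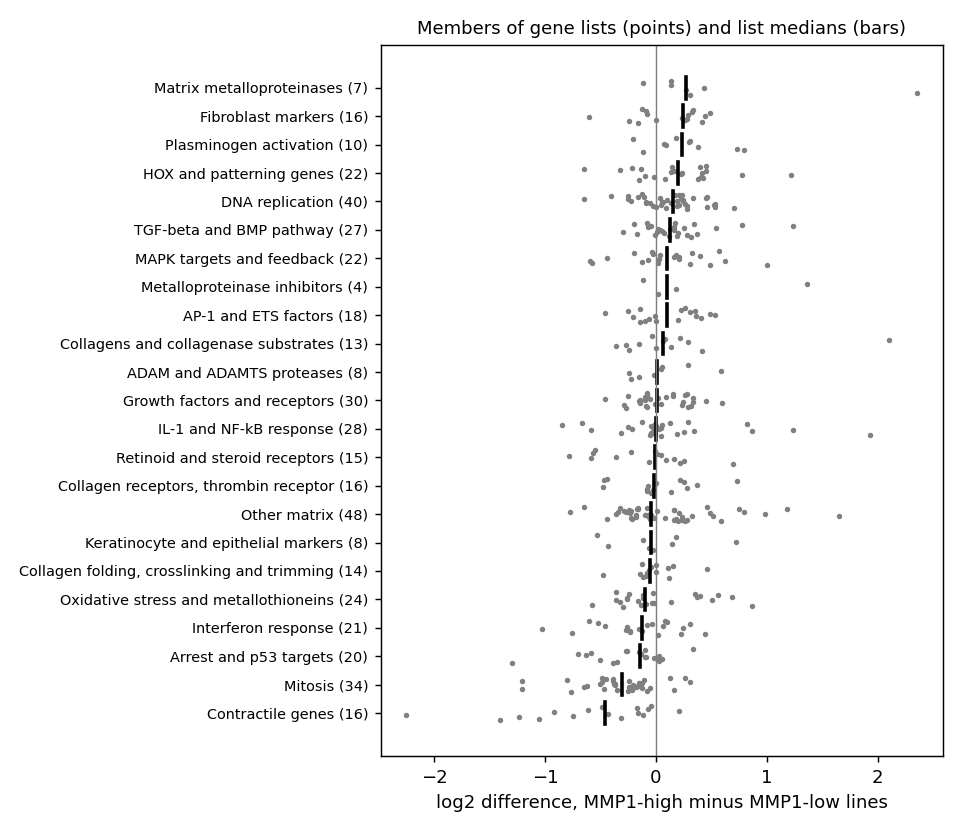
Log2 difference between MMP1-high and MMP1-low lines (x axis) for the tested members of 23 gene lists with 4 or more tested genes (smooth muscle, melanocyte and Y-linked lists not drawn), 1 point per gene, with a bar at the median of each list and the number of genes in brackets. The medians run from −0.46 for contractile genes to 0.27 for metalloproteinases, and MMP3 (2.36), TNC (2.10) and IL1RL1 (1.93) are the points farthest to the right.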

How the data were processed

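Each array came with 12625 deposited intensities on a linear scale, 1 per probe set. The authors' summary and scaling methods are not given in the sources used here. Array means after 2% trimming lay between 408 and 423, within 3.57%, so the deposited scaling was kept. Per the values, low intensities had been raised to a floor before deposit (100 in 9 arrays, 90 in 2).

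Intensities under 100, the 40th percentile of all values, were set to 100, and log2 was taken. The 67 controls were left out, as was the MMP1 probe set, which defined the classes. The other 7332 probe sets above the floor in at least 5 of 11 arrays were compared between the classes with limma (version 3.58.1, R version 4.3.3), using lmFit and a trended eBayes, two-sided tests and Benjamini-Hochberg adjustment. A gene at the floor in most lines of 1 class could enter through the other class alone, so its difference is no separate support. A second fit held the interaction with sex. Precision is limited by the number of arrays. Probe annotation of 2016 named 10943 probe sets with 1 symbol, 545 with several and 1070 with none, and only the first were named. The probe set of highest mean log2 stood for a gene, which gave 5369 genes. Of 8226 symbols, 7680 were found in a gene table of the bonobo assembly NHGRI_mPanPan1-v2.0_pri, used for names and gene order. Lines were numbered within each sex, and the numbers pair nothing.

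The classes, the 28 gene lists (650 genes) and the tests were chosen with earlier results of these data known. Lists were described by counts and medians, with no test. Genes were named by rule: those that passed, filled up to 15 of lowest p per direction; the 10 widest differences per direction without overlap; the 10 genes most and least like MMP1 by correlation; all tested metalloproteinases, inhibitors, AP-1 and ETS factors and collagenase substrates; and the members of largest difference in other lists. Alternatives covered scaling, floor, filters, variance model, covariates, the coding of MMP1 and leaving out each line. The GAPDH covariate, sex and age as covariates for lists, and keeping MMP1 in the test were chosen after seeing the data. Tested on simulated data with the means and spreads of these 7332 probe sets, the fit recovered 37% of 100 planted differences of 1 log2 and 94% of 100 of 2 log2, with 13 false calls. The share of differences of these sizes that the fit would find in the measured lines was not tested. In those lines MMP3 (2.36), TNC (2.10) and MYH11 (−2.25) did not pass. Promoter motifs were not analysed here.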

Additional observations from a re-analysis of the deposited data

Results flagged for a closer look

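In 12 of 66 groups of 5 lines examined, 1 line stood apart from the other 4 by more than Dixon's 95% critical value of 0.71. Chance flags about 1 in 20 groups of normally distributed values. Intensities were examined without log2, so that share need not hold here, and the genes examined were chosen after their values were seen. In the MMP1-high class these were MMP1 in female line 4 (12032, the others 7243 to 8220), KLK6 in female line 4 (587, the others 280 to 347), ADGRB1 in male line 2 (724, the others 401 to 453), and PTTG1 (793, the others 253 to 352) and CDKN3 (707, the others 138 to 265) in male line 3. In the MMP1-low class they were MMP3 (227, the others at 100), MYH11 (6163, the others 195 to 1567) and CDKN1C (1616, the others 192 to 400) in female line 1, and CNN1 in female line 3 (1033, the others 211 to 415). For MMP3 the other 4 lines were at the floor, so any higher value would have been flagged.

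Among the array measures, the mean signal of the 18S ribosomal RNA controls was 131.33 in male line 2 and 253 in male line 4, against 100 in the other lines of their classes. Those other lines were at the floor, so any higher mean would have been flagged. The ACTB 3' to 5' ratio was 2.27 in male line 4, against 1.06 to 1.26 in the other MMP1-low lines.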

How the results depend on the processing

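The count of 0 probe sets past the threshold was the same under other scalings, floors, filters, variance models and covariates. It was 1 with the slope on log2 MMP1 (LPXN) and 0 to 1 as lines were left out. The 1 was PCSK7, without male line 5 (adjusted p = 0.0304; log2 difference 1.50 and adjusted p = 0.508 with all lines). Probe sets at an unadjusted p under 0.05 numbered 295 with a filter on all 10 lines and 340 to 565 as lines were left out (451 with all). Genes lower without overlap numbered 9 with the floor at the 60th percentile (198) in place of 19. With the GAPDH ratio as a covariate, list medians were 0.45 for MAP kinase feedback, 0.27 for TGF-beta and 0.30 for epithelial markers. The fibroblast marker median of 0.25 was 0.017 without male line 4, with a range of 0.017 to 0.249 over lines left out. That of 3 blood markers was 0.070 with the higher floor and 0.172 to 0.538 over lines left out. The causes were not tested, apart from the smaller number of probe sets under the stricter filter. The 42 genes named for low p, for lack of overlap or for their likeness to MMP1 kept their direction in all 23 alternatives run for them. They were chosen from these same lines for those traits, so a kept direction was largely fixed by the choice and is not support. The floor at the 20th percentile equals the main floor, 100, and was not run. No paired analysis was possible because the replicate numbers only name the lines. A difference that takes a gene to the floor is known only as a bound.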

Other observations

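The second culture of male line 1, harvested at 50% confluence, had an MMP1 intensity of 390, within the range of the MMP1-low lines, against 7243 in the standard culture of that line. The 2 cultures have no replicate, and the standard one is also a member of the MMP1-high class, so the values are given with no test. Their arrays also differed in the mean signal of the 18S ribosomal RNA controls. It was 2066 in the 50% confluence culture and 100 in the standard culture. The part of this array difference in the values below was not tested. Of genes that were higher in the MMP1-high lines by estimate, MMP3 read 239 in the standard and 109 in the 50% confluence culture, IL1RL1 1600 and 223, TNC 2503 and 427, and PLAUR 2094 and 752. LPXN read 940 and 1514, THBS1 6860 and 19814, GREM1 1167 and 2668, and TIMP3 7667 and 13262, so these were higher where MMP1 was lower. E2F4 read 2372 and 2734, above all 10 standard lines in the 50% confluence culture. Of 16 contractile genes, 15 were higher in the 50% confluence culture and 1, TAGLN, was lower (24068 and 17618). CALD1 (1541 and 1556) and MYL9 (6616 and 6710) were close. MYH11 read 874 and 3997, CNN1 362 and 1154, TPM2 10584 and 18848, and ACTA2 10185 and 12389.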
